A study of Homo sapiens with 12 samples.

Results

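MYC, the cyclin D and E genes and the genes that gate the passage from G1 into S phase were followed across 3 gastric cancer cell lines that had been sorted by the surface protein CD133. The set was given as a list of 10 gene symbols, namely MYC, CCND1, CCND2, CCND3, CCNE1, CDK4, CDK6, CDKN1B, CDKN2A and RB1. All 10 had a row among the 34595 genes with values, and 9 of them lay above background on at least 2 arrays. CCND2 did not.

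KATO-III, SNU-216 and SNU-601 are established human gastric cancer lines, and the question of the study was how CD133+ cells, held to be enriched for cancer stem cells, differ in expression from CD133- cells of the same culture. No cells were drug-treated or genetically altered. All were grown in RPMI1640 with calf serum, stained with a PE-labelled antibody to CD133/1 (AC133) and sorted by flow cytometry, the brightest cells giving the CD133+ fraction and the dimmest the CD133- fraction. The deposited design text names a line SNU201 where the sample labels have SNU-216, which is the name used here. Total RNA of each of the 6 populations was hybridised to 2 Illumina HT-12 v3 BeadChip arrays, 12 arrays in all. Nothing in the sources says whether the 2 arrays of a population came from separate sorts, so p-values measure the spread between these arrays only, which may be technical.

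MYC is a transcription factor that drives growth and cell cycle entry, and it binds DNA together with its partner MAX. D-type cyclins activate the kinases CDK4 and CDK6, which begin to phosphorylate the retinoblastoma protein RB1, and cyclin E with CDK2 completes that step, so that RB1 releases the E2F transcription factors and the genes of DNA synthesis are switched on. The INK4 inhibitors, of which p16 from CDKN2A is the best known, bind CDK4 and CDK6, whereas the CIP/KIP inhibitors such as p27 from CDKN1B act mainly on cyclin E and CDK2. Loss of the inhibitors or of RB1 and gain of CCNE1, CDK6 or MYC are familiar events in gastric cancer.

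The sort and the identity of the cells were checked first. PROM1, which encodes CD133, had a mean intensity of 9179.9 ± 470.7 (SD, n = 2) in KATO-III CD133+ against 4274.5 ± 308.7 in CD133- cells, 9023 ± 353.4 against 2225 ± 8.80 in SNU-216 and 4777 ± 141.4 against 1319.9 ± 6.44 in SNU-601. The CD133- cells of KATO-III thus carried nearly as much PROM1 signal as the CD133+ cells of SNU-601. Of the 5 epithelial markers, EPCAM, CDH1, KRT8, KRT18 and KRT19, all were above background in every population. Of 8 markers of immune, stromal and endothelial cells, 6 were not above background on 2 arrays, namely PTPRC, CD3E, COL3A1, DCN, PECAM1 and VWF. CD68, which macrophages express strongly and many other cells express weakly, was lower in CD133+ cells in each line, with a log2 difference of -0.98 ± 0.14 (SE) over all lines (limma adjusted p = 0.00868). COL1A1, a collagen of stromal cells and the other testable marker, was 59.2 ± 11.2 (SD, n = 2) in KATO-III CD133+ against 23.9 ± 4.70 in CD133- cells, the latter under the floor (log2 difference 0.84 ± 0.20 SE, limma adjusted p = 0.00977). It was -2.05 ± 19 against 19 ± 20.3 in SNU-216 and 174 ± 30.4 against 167.3 ± 40.5 in SNU-601, where its differences did not pass. The summed intensity of the 8 markers ran from 91.3 to 127.2 on KATO-III CD133+ arrays and from 154.4 to 158.5 on CD133- arrays, from 189 to 207.3 and from 403.3 to 488.1 in SNU-216, and from 1299 to 1403 and from 1734.5 to 1774 in SNU-601. Whether this bears on the G1 genes was not tested. The arrays of a population correlated with r between 0.993 and 0.995, each array had between 16320 and 16474 genes above background, and no array stood apart.

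All values are background-subtracted linear intensities as deposited, so a value near or below 0 means no signal over background. Since the probes behind a row are not known, this need not mean that the transcript is absent. For tests, values under 32.7 were raised to that floor and log2 was taken. Populations with both arrays at the floor show no spread. SEs and p-values of genes with such populations may therefore be too small. A gene is called where the limma p-value, adjusted over the 20147 genes that cleared the floor on 2 or more arrays, was under 0.05. Calls over all lines need more caution, because that fit had no term for the population, and its p-values may be too small. A level of a gene is compared only with the same gene in another population, since intensities of different probes have no common scale. In sorted bulk cells a different share of cells in a cell cycle phase and a different amount of RNA per cell cannot be told apart.

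**Figure D1:**
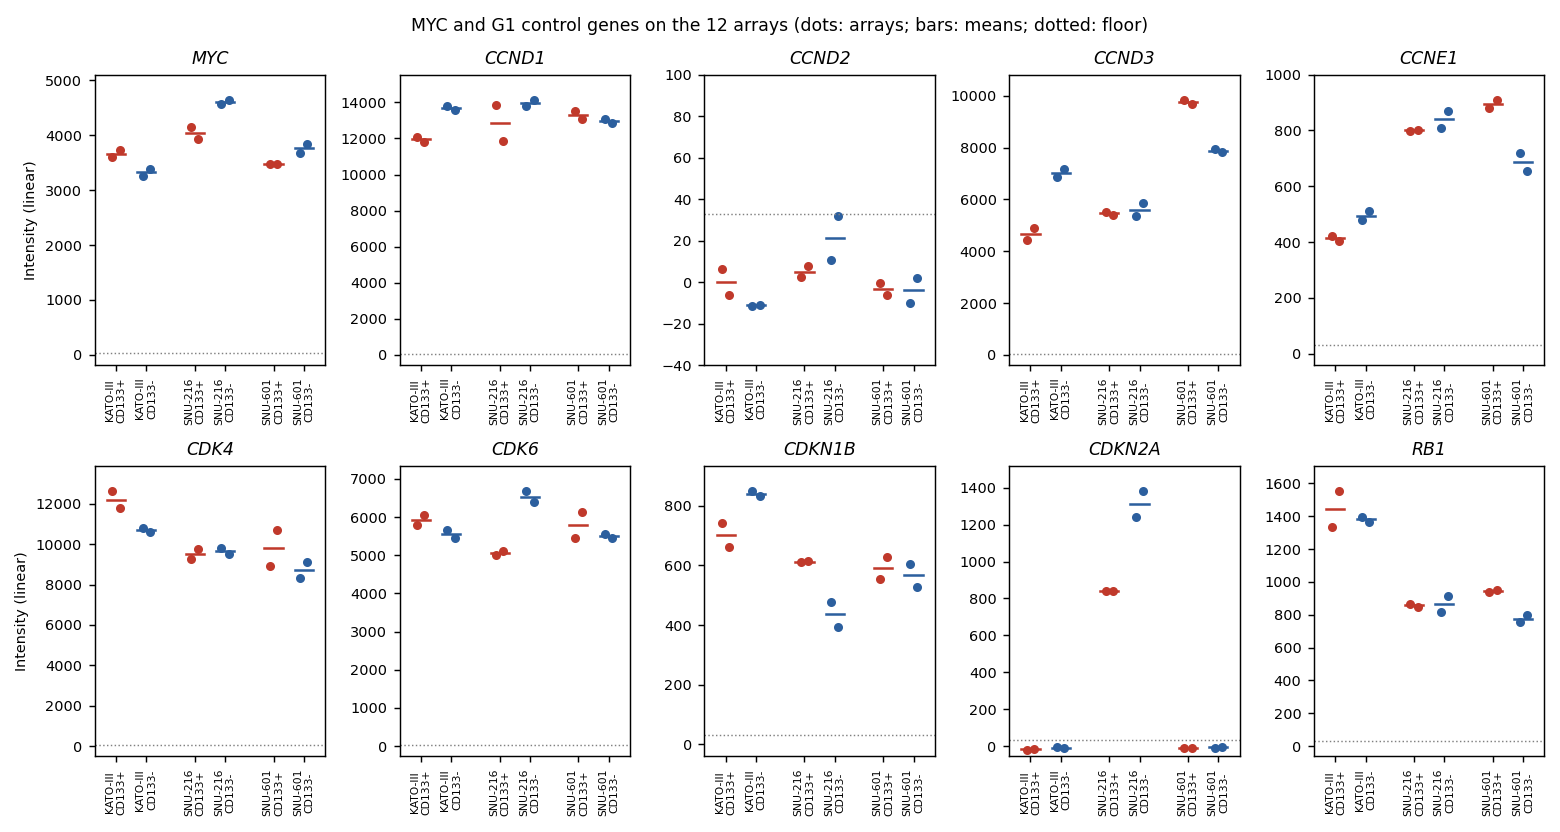
Linear intensity (vertical axes, each panel on its own scale) of the 10 genes in the 6 sorted populations. Dots are the 2 arrays of a population, red for CD133+ and blue for CD133-, bars their mean, and the dotted line the floor of 32.7. CDKN2A rises above the floor in SNU-216 alone, and CCND2 lies below it on all 12 arrays.

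The genes called between CD133+ and CD133- cells overlapped in part between the lines. CCND3 and CCNE1 were called in KATO-III and SNU-601 and MYC in KATO-III and SNU-216, each in opposite directions in the 2 lines. The number called in KATO-III was near the share of all genes called there. In KATO-III, 4 of the 9 testable genes were called (CCND1, CCND3 and CCNE1 lower and MYC higher in CD133+ cells), against 39.3% of all genes tested, 18.7% higher and 20.6% lower. In SNU-216, 4 were called (MYC, CDK6 and CDKN2A lower and CDKN1B higher), against 28.6% of all genes, 14.6% higher and 14.0% lower. In SNU-601, 3 were called (CCND3, CCNE1 and RB1, all higher), against 16.4% of all genes, 8.59% higher and 7.78% lower. When the lines were pooled, with line as a blocking factor, 0 of the 9 passed in limma, while 4.73% of all genes were called, 2.62% higher and 2.11% lower. At an unadjusted p under 0.05 the count over all lines was also 0, the lowest value being 0.0739 for CDK4. The median log2 difference of the 9 genes was 0.00 in KATO-III, -0.07 in SNU-216, 0.07 in SNU-601 and -0.05 over all lines, beside 0.00, 0.00, 0.00 and -0.01 for all genes tested. The 9 include CDKN2A, which lay under the floor in KATO-III and SNU-601 and so could not be called there. Its change of 0, set by the floor, is itself the KATO-III median. The difference between fractions was itself unequal among the lines for 5 of the 8 genes above the floor on all 12 arrays, namely CCND3, CCNE1, CDK6, MYC and CDKN1B. This moderated F-test of the interaction called 44.4% of all genes tested, a share that includes genes under the floor on some arrays. CDKN2A is not counted here, since the floor sets its change to 0 in KATO-III and SNU-601.

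**Figure D2:**
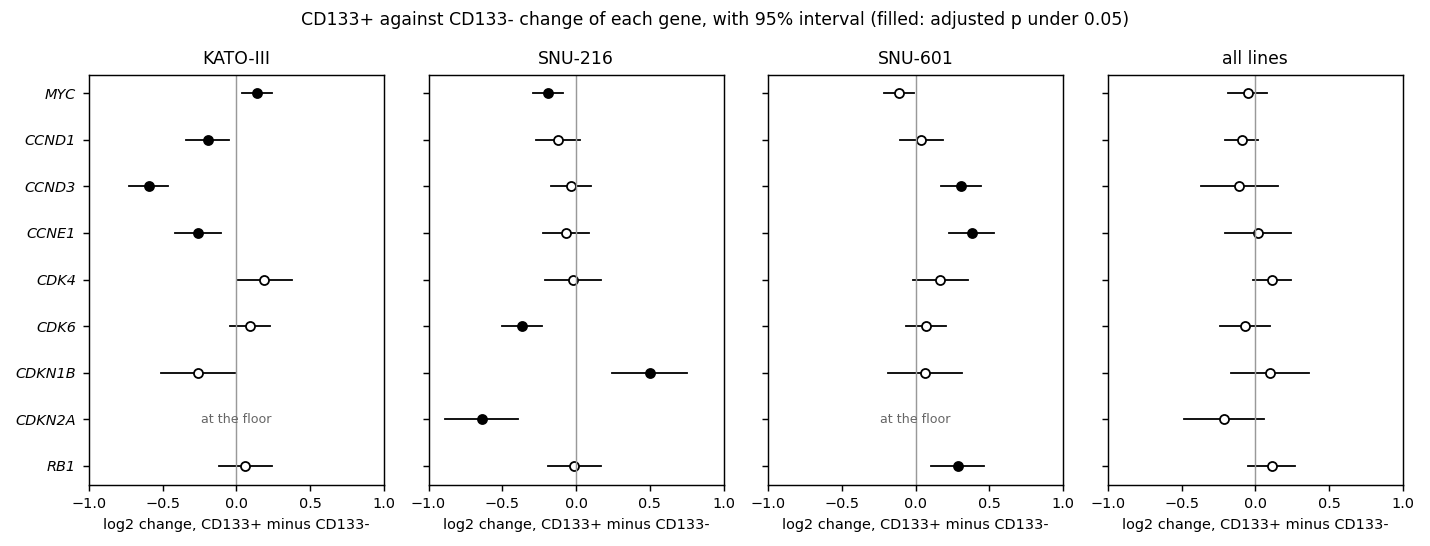
Log2 difference between CD133+ and CD133- cells (horizontal axes) for the 9 testable genes in each line and over all lines. Points are limma estimates, lines 95% intervals, and filled points have an adjusted p under 0.05. CCND3 goes from -0.59 in KATO-III to 0.31 in SNU-601, and no filled point appears over all lines.

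MYC was abundant in all populations, and its changes with CD133 were small. In KATO-III the CD133+ arrays read 3598 and 3733 and the CD133- arrays 3259 and 3393. In SNU-216 they read 4153 and 3940.4 against 4580 and 4644, and in SNU-601 3477 and 3486 against 3673 and 3851. Both CD133+ arrays were thus above both CD133- arrays in KATO-III and below them in the other two lines. The log2 difference was 0.14 ± 0.04 (SE) in KATO-III (limma adjusted p = 0.0342) and -0.19 ± 0.04 in SNU-216 (limma adjusted p = 0.0121), and -0.11 ± 0.04 in SNU-601, which did not pass (limma adjusted p = 0.137). The change in SNU-216 differed from that in KATO-III by -0.33 ± 0.06 (limma adjusted p = 0.00393, 32.0% of all genes called in that comparison), and the change in SNU-601 differed from that in KATO-III by -0.25 ± 0.06 (limma adjusted p = 0.0157, 30.1% of all genes). Between SNU-601 and SNU-216 the changes differed by 0.08, with a 95% interval from -0.07 to 0.22. The order of levels ran from SNU-216 CD133- down to KATO-III CD133-, with SNU-601 CD133- and KATO-III CD133+ overlapping. Averaged over fractions, MYC was higher in SNU-216 than in KATO-III by 0.31 ± 0.03 (limma adjusted p = 1.93e-05) and lower in SNU-601 than in SNU-216 by a log2 difference of -0.26 ± 0.03 (limma adjusted p = 7.27e-05). The KATO-III call was lost without CD133+ array 1 (adjusted p = 0.0516), CD133+ array 2 (0.16) or CD133- array 1 (0.165) and, with an offset of 100 in place of the floor, with no mean-variance trend or on that line's arrays alone, at adjusted p-values from 0.0616 to 0.109. The SNU-216 call was lost without CD133+ array 2 (0.0785) or CD133- array 2 (0.0602), with no trend (0.0523) and on that line's arrays alone (0.0831).

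The D-type cyclins gave the largest change of the set between fractions of a line outside CDKN2A, and it was in CCND3. Cyclin D3 is the D cyclin best known from lymphoid cells but is made by many epithelia. In KATO-III, CCND3 read 4430.3 and 4890.1 on CD133+ arrays against 6876 and 7181 on CD133- arrays. In SNU-216 it read 5525 and 5401 against 5353 and 5855, and in SNU-601 9840.3 and 9674 against 7931 and 7847. The fractions were apart in KATO-III and SNU-601, in opposite directions, and overlapped in SNU-216. The log2 difference was -0.59 ± 0.06 (SE) in KATO-III (limma adjusted p = 7.05e-05) and 0.31 ± 0.06 in SNU-601 (limma adjusted p = 0.00866). In SNU-216 it was -0.04, with a 95% interval from -0.17 to 0.10. The change differed between SNU-601 and KATO-III by 0.90 ± 0.08 (limma adjusted p = 9.25e-05), between SNU-216 and KATO-III by 0.56 ± 0.08 (limma adjusted p = 0.00104) and between SNU-601 and SNU-216 by 0.34 ± 0.08 (limma adjusted p = 0.0143, 28.2% of all genes called). On the arrays of SNU-601 alone its adjusted p was 0.0588.

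CCND1, which encodes cyclin D1 and is a frequent target of amplification in carcinomas, was bright everywhere and nearly level. The KATO-III arrays read 12105 and 11815 in CD133+ and 13791 and 13590.1 in CD133- cells, so that the fractions were apart. The SNU-216 arrays read 13879 and 11875 against 13819 and 14134, which overlapped. The SNU-601 arrays read 13518 and 13105 against 13059 and 12856.5, narrowly apart with CD133+ above. The log2 difference in KATO-III was -0.20 ± 0.07 (SE, limma adjusted p = 0.0421), that in SNU-216 -0.12 (95% interval -0.27 to 0.03) and that in SNU-601 0.04 (-0.11 to 0.19). The KATO-III call was lost when any KATO-III array was left out (adjusted p from 0.0972 to 0.157), when either SNU-216 CD133- array (0.0607 and 0.0605) or any SNU-601 array (0.0567 to 0.0591) was, and with median centring (0.105), no trend (0.0893) or every gene tested (0.103) as well. The 2 SNU-216 CD133+ arrays disagreed. Without array 1 the difference in SNU-216 was -0.235 (adjusted p = 0.0105) and the changes of the lines differed (0.0115), as they did without array 2 (0.0216), while with all arrays the interaction was not called (limma adjusted p = 0.147). Averaged over fractions, CCND1 was called in none of the comparisons between lines, though without SNU-216 CD133+ array 2 it was higher in SNU-216 than in KATO-III by 0.12 (adjusted p = 0.0081) and lower in SNU-601 than in SNU-216 (-0.08, adjusted p = 0.0432).

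CCND2, encoding cyclin D2, had intensities between -11.8 and 31.8 on the 12 arrays, all under the floor. No fold or order of populations can be given for it.

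CCNE1, which encodes cyclin E1 and is amplified in part of gastric cancers, went the same ways as CCND3. The CD133+ arrays of KATO-III read 422 and 405 and its CD133- arrays 479 and 512. In SNU-601 the CD133+ arrays read 878.8 and 909 and the CD133- arrays 719.8 and 655. The fractions were apart in both lines, the CD133+ cells lower in KATO-III and higher in SNU-601. In SNU-216 the arrays read 799 and 803 against 809.8 and 870.1, narrowly apart with CD133+ below. The log2 difference was -0.26 ± 0.07 (SE) in KATO-III (limma adjusted p = 0.0143), 0.38 ± 0.07 in SNU-601 (limma adjusted p = 0.00614) and -0.07 in SNU-216 (95% interval -0.22 to 0.09). The change in SNU-601 differed from that in KATO-III by 0.64 ± 0.10 (limma adjusted p = 0.00117) and from that in SNU-216 by 0.45 ± 0.10 (limma adjusted p = 0.00773). The line made the larger difference. Over both fractions, CCNE1 was higher than in KATO-III by 0.86 ± 0.05 in SNU-216 (1.81-fold, limma adjusted p = 2.24e-07, 62.0% of all genes called) and by 0.79 ± 0.05 in SNU-601 (1.73-fold, limma adjusted p = 5.37e-07, 58.6% of all genes). Without CD133+ array 2 or CD133- array 2 of KATO-III the call in that line was lost (adjusted p = 0.0757 and 0.0881). On a line's own arrays alone the adjusted p was 0.0707 in KATO-III and 0.114 in SNU-601.

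Since CCND3 and CCNE1 moved the same way in KATO-III and in SNU-601, the promoters of both are printed, as the 250 bases before annotated transcription starts in RefSeq (GRCh38.p14), written 5′ to 3′ on the strand of the gene. Of the 10 genes, 7 had an entry, and CCND3 has 3 starts there. Capitals mark the GC box, GGGCGG on either strand, a site recognised by SP1-like factors that occurs in 42.6% of the 35116 promoter windows of this length. CCNE1 holds 7 copies. The CCND3 starts hold 5, 2 and 0, and those with copies are shown. The GC box is not particular to this pair. CDK4 holds 3, the CDK6 starts 3 and 0, CDKN1B 1 and the CDKN2A starts 1 and 0. RB1 had a single window, chr13:48476200-48476449 on the plus strand, which holds none. Starts of these genes without an entry were not searched, here or for the E2F site below. Whether the GC boxes bear on the changes was not tested.
CCNE1, chr19:29811741-29811990, plus strand: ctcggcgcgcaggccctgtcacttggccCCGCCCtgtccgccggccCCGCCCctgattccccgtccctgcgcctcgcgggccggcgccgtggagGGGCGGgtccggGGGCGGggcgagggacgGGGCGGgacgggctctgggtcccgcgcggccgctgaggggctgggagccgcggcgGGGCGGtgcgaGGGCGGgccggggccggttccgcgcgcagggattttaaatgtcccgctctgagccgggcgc
CCND3, chr6:42048689-42048938, minus strand: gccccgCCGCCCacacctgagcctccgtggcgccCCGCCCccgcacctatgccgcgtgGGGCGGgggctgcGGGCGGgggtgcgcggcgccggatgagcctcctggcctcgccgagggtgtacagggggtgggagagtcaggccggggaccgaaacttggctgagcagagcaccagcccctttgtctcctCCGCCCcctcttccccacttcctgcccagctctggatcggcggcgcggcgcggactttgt
CCND3, chr6:41941809-41942058, minus strand: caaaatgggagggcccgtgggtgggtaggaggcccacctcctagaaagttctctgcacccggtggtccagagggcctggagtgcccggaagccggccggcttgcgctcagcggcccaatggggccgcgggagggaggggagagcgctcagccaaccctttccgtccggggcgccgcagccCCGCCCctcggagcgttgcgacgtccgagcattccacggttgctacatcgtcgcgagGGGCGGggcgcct
The E2F site, searched on both strands as TTTCCCGC, TTTCGCGC, TTTGCCGC or TTTGGCGC and present in 2.79% of all windows, was in none of the windows of the 7 genes, which says only that these letters are not there.

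The kinases partnering the D cyclins behaved unlike each other. CDK4 read 12615 and 11792 in CD133+ against 10796 and 10581 in CD133- cells in KATO-III. It read 9282 and 9768 against 9807 and 9497 in SNU-216 and 8924 and 10693 against 8316 and 9093 in SNU-601. Only the KATO-III fractions were apart. The log2 difference was 0.19 ± 0.08 (SE) in KATO-III, -0.02 ± 0.08 in SNU-216 and 0.17 ± 0.08 in SNU-601, with limma adjusted p-values of 0.107, 0.991 and 0.231. The KATO-III difference passed without SNU-601 CD133+ array 1 (adjusted p = 0.0338) or array 2 (0.0337), and the SNU-601 difference passed without its CD133+ array 1 (0.30, adjusted p = 0.0383). Between lines CDK4 was lower than in KATO-III in SNU-216 (-0.25 ± 0.06, limma adjusted p = 0.00436) and in SNU-601 (-0.31 ± 0.06, limma adjusted p = 0.00142).

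CDK6 read 5789 and 6057 against 5672 and 5452 in KATO-III, 5016 and 5111 against 6677 and 6398 in SNU-216, and 5441 and 6139 against 5571 and 5443 in SNU-601, the CD133+ arrays given first. The SNU-216 CD133+ cells had the lowest and the SNU-216 CD133- cells the highest mean of the 6 populations, and each was apart from its neighbour in the order. The 4 populations of the other lines each overlapped the next in that order. The KATO-III fractions were still apart from each other, with CD133+ above. In SNU-216 the log2 difference was -0.37 ± 0.06 (SE, limma adjusted p = 0.00175), or 1.29-fold lower in CD133+ cells. In KATO-III it was 0.09 (95% interval -0.04 to 0.23) and in SNU-601 0.07 (-0.06 to 0.20). The change in SNU-216 differed from that in KATO-III by -0.46 ± 0.08 (limma adjusted p = 0.00304), and that in SNU-601 differed from that in SNU-216 by 0.44 ± 0.08 (limma adjusted p = 0.00445). Averaged over fractions, CDK6 was called in none of the comparisons between lines. Its 3 log2 differences there lay between -0.03 and 0.00, with 95% intervals reaching from -0.12 to 0.10.

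CDK4 is a textbook target of MYC, which binds the E-box CACGTG, and its promoter is shown for that reason (RefSeq, GRCh38.p14, 250 bases before the start, 5′ to 3′ on the strand of the gene, E-boxes in capitals).
CDK4, chr12:57752311-57752560, minus strand: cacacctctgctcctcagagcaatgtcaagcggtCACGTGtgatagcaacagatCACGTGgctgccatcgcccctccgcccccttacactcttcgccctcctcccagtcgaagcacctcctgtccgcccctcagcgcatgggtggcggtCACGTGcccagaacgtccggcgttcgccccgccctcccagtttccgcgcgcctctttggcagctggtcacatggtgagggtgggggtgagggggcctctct
It holds E-boxes beginning 216, 196 and 101 bases before the start, whereas 6.34% of all promoter windows hold any, and it was the only gene of the 7 with an entry that did. It also holds 3 GC boxes, left in lower case. On the arrays, CDK4 had its highest means in KATO-III and MYC in SNU-216. In KATO-III both CD133+ arrays were above both CD133- arrays for either gene, by a log2 difference of 0.14 for MYC, which passed, and of 0.19 for CDK4, which did not. The other lines did not show this. In SNU-216 the difference was -0.19 for MYC, which passed, and -0.02 for CDK4. In SNU-601 the signs were opposite, -0.11 for MYC and 0.17 for CDK4, and neither passed. Whether MYC acts on CDK4 in these cells was not tested.

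Among the brakes, CDKN2A was above background in SNU-216 alone. This gene gives rise to p16INK4a and, from another first exon, to ARF, and its single row cannot tell the transcripts apart. On the 4 KATO-III CD133+ and CD133- arrays it read -18.6, -13.2, -4.87 and -10.3, while the 4 SNU-601 arrays read -7.62, -8.58, -10.1 and -3.23. In SNU-216 it read 838 and 842 in CD133+ and 1239.6 and 1380.4 in CD133- cells. Thus all 8 arrays of the other lines were at background, and within SNU-216 both CD133+ arrays were below both CD133- arrays. SNU-216 exceeded each of the other lines at least 32.1-fold, taking the floor as their level. No p-value is given for this, because the gene entered the tests through its SNU-216 arrays alone. This bound depends on the floor, being 65.5 with a floor of 16 and 10.5 with a floor of 100. In SNU-216 the log2 difference between fractions was -0.64 ± 0.11 (SE, limma adjusted p = 0.00241), or 1.56-fold lower in CD133+ cells. The 8 floored arrays add no spread to the shared estimate, so this SE and p-value may be too small. The call was kept on the arrays of SNU-216 alone.

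Both CDKN2A starts in RefSeq (GRCh38.p14) are printed to show that they lie apart on chromosome 9 and that the row is silent on which was used. Each line gives the 250 bases before a start, 5′ to 3′ on the strand of the gene, with a GC box in capitals where there is one.
CDKN2A, chr9:21974858-21975107, minus strand: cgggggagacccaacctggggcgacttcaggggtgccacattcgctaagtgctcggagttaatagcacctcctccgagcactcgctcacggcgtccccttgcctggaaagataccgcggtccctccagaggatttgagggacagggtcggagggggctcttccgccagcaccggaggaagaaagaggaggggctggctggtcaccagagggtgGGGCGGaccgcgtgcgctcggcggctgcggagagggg
CDKN2A, chr9:21995325-21995574, minus strand: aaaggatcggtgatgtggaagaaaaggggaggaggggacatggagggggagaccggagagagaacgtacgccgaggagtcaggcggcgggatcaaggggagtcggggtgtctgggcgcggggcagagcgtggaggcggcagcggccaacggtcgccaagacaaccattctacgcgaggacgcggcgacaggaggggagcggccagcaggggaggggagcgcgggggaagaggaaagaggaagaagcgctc
Neighbours in the RefSeq gene order were looked at after these values were seen. MTAP, the next protein-coding gene on one side, had means between 1179 and 1966 in all 6 populations, and CDKN2B, the next on the other side, between 141.9 and 666.5. DMRTA1, beyond CDKN2B, had a mean of 197.5 ± 17.8 (SD, n = 2) in SNU-216 CD133+ and 149 ± 47.4 in SNU-216 CD133- cells, but means from -4.59 to 14 in the other lines.

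CDKN1B, which encodes p27, read 742 and 663 against 849 and 832 in KATO-III, 611 and 615 against 478 and 393 in SNU-216, and 556 and 628 against 605 and 528 in SNU-601, CD133+ arrays first. The fractions were apart in KATO-III, with CD133+ below, and in SNU-216, with CD133+ above. The log2 difference was 0.50 ± 0.11 (SE) in SNU-216 (1.41-fold, limma adjusted p = 0.00915), -0.26 ± 0.11 in KATO-III (limma adjusted p = 0.0992) and 0.06 ± 0.11 in SNU-601 (limma adjusted p = 0.831). The change in SNU-216 differed from that in KATO-III by 0.76 ± 0.16 (limma adjusted p = 0.00583). Over both fractions CDKN1B was lower than in KATO-III in SNU-216 (-0.57 ± 0.08, limma adjusted p = 0.000149) and in SNU-601 (-0.41 ± 0.08, limma adjusted p = 0.0015). The SNU-216 call was lost without its CD133- array 2 (0.36, adjusted p = 0.0623) and on that line's arrays alone (adjusted p = 0.125). Without SNU-216 CD133- array 1 CDKN1B was also higher in SNU-601 than in SNU-216 (0.24, adjusted p = 0.0269).

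RB1, the target of the cyclin kinases, separated KATO-III from the other lines. It read 1336 and 1552 against 1398 and 1365 in KATO-III, 867 and 846 against 816 and 914 in SNU-216, and 936 and 953 against 754 and 797 in SNU-601. The fractions overlapped in KATO-III and SNU-216 and were apart in SNU-601. RB1 was lower than in KATO-III by a log2 difference of -0.71 ± 0.06 (SE) in SNU-216 (limma adjusted p = 2.79e-06) and of -0.72 ± 0.06 in SNU-601 (limma adjusted p = 3.2e-06). In SNU-601 it was higher in CD133+ cells by 0.29 ± 0.08 (limma adjusted p = 0.0406), while the difference was 0.06 (95% interval -0.12 to 0.24) in KATO-III and -0.01 (-0.19 to 0.17) in SNU-216. The SNU-601 call was lost when any array of that line was left out (adjusted p from 0.0841 to 0.176), without either KATO-III CD133- array (0.0614 and 0.0613) or SNU-216 CD133+ array (0.0603 each), and with no trend (0.0747), every gene tested (0.102) or the arrays of the line alone (0.0922). The change was not shown to differ between lines (limma adjusted p = 0.12), except without KATO-III CD133+ array 2 (0.0409).

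With CDKN2A left out, the called genes between SNU-216 and KATO-III were 5 of 8 (CCNE1 and MYC higher and CDK4, CDKN1B and RB1 lower in SNU-216), near the 62.0% of all genes. Between SNU-601 and KATO-III they were 5 of 8, beside 58.6% of all genes (CCND3 and CCNE1 higher and CDK4, CDKN1B and RB1 lower in SNU-601). Between SNU-601 and SNU-216 there were 2 of 8, with CCND3 higher by 0.67 ± 0.04 (SE, limma adjusted p = 5.07e-07) and MYC lower in SNU-601, where 56.5% of all genes were called. CCND3 was higher in SNU-601 than in KATO-III by 0.62 ± 0.04 (limma adjusted p = 1.16e-06). These comparisons share arrays with each other. The shares of all genes cover the 20147 genes tested, dim ones included. Of those, 11674 were above the floor on all 12 arrays, as the 8 were, and their own share is not given.

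The methods of the study pick CD133 genes by a signal-to-noise ratio without giving its formula or scale. The usual form was computed here, on linear intensities, and it may not be the one the study used. It sets the gap between the CD133+ and the CD133- mean, each over 6 arrays, against their SDs added up. It ran from -0.59 for CCND1 to 0.35 for CDK4, so that 0 of the 10 genes passed 1 or -1, the thresholds in the methods. Of all genes, 0.558% were above 1 and 0.402% below -1. It was -0.06 for CCND3 and 0.07 for CCNE1, which were lower in CD133+ cells of KATO-III and higher in those of SNU-601.

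The rest of the G1 machinery was taken from a list of 20 further cyclins, kinases, inhibitors, pocket proteins and ubiquitin ligase parts, all of which were testable. In the CD133+ cells of KATO-III 5 were higher and 6 lower, in SNU-216 10 were higher and 1 lower, and in SNU-601 5 were higher and 0 lower. The median log2 difference was 0.02, 0.28 and 0.13, beside 0.00 for all genes in each line, and 39.3%, 28.6% and 16.4% of all genes were called. Over all lines 2 were called, both higher. SKP2, which marks p27 for destruction, rose by 0.37 ± 0.09 (SE, limma adjusted p = 0.0467), and its cofactor CKS1B by 0.26 ± 0.05 (limma adjusted p = 0.0235). SKP2 was 2954 ± 307.6 (SD, n = 2) in KATO-III CD133+ against 1773 ± 43.2 in CD133- cells, 2328 ± 70.03 against 2169 ± 45.5 in SNU-216, and 2199.7 ± 77.8 against 1799 ± 35.3 in SNU-601.

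**Figure D3:**
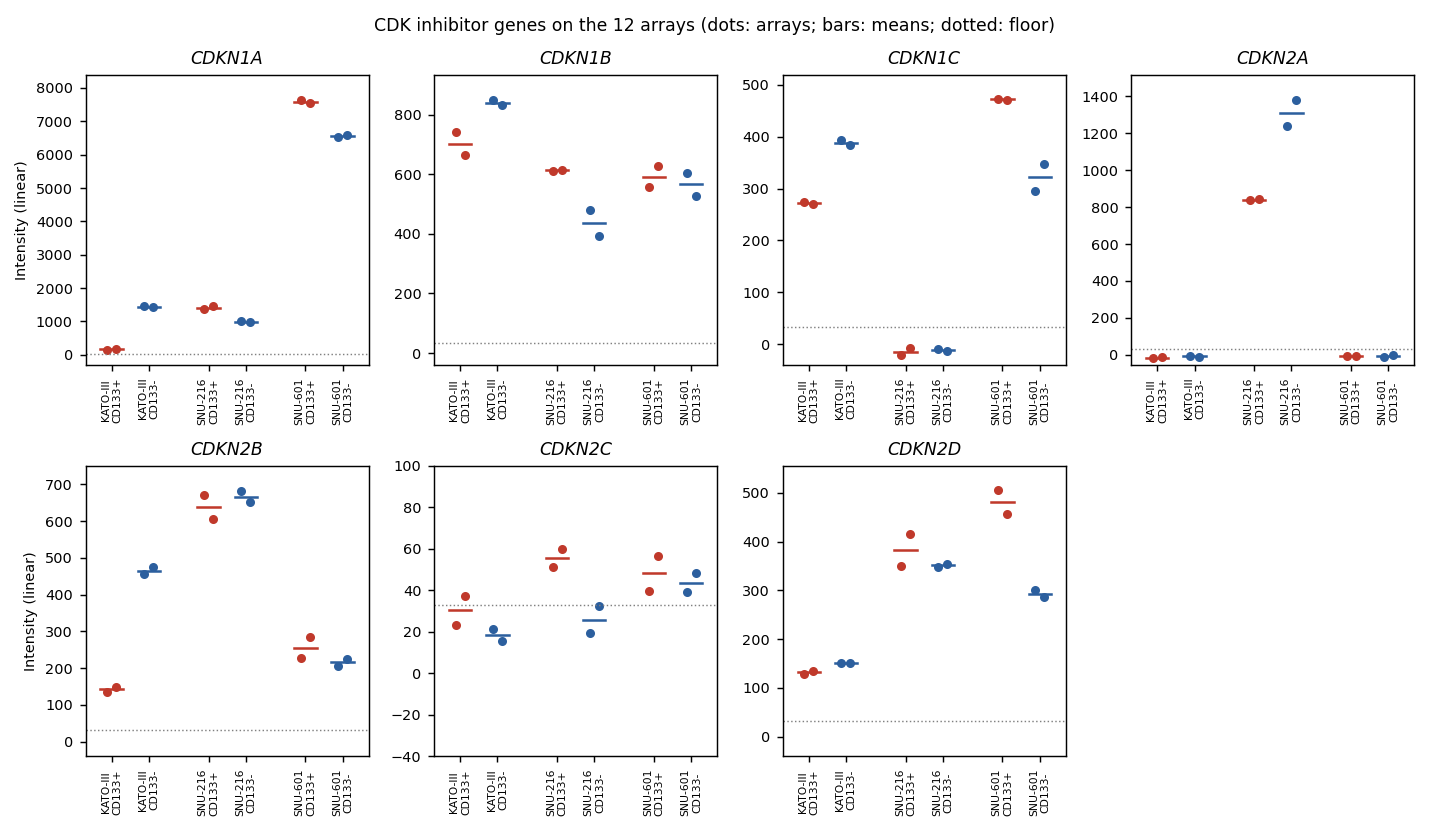
Linear intensity (vertical axes, each panel on its own scale) of 7 CDK inhibitor genes in the 6 sorted populations. Dots are the 2 arrays of a population, red for CD133+ and blue for CD133-, bars their mean, and the dotted line the floor of 32.7. CDKN1A falls to 163.9 in KATO-III CD133+ cells and reaches 7592 in SNU-601 CD133+ cells.

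The inhibitors of this list are described together with CDKN1B and CDKN2A, and apart from CDKN2D were singled out after their values were seen. CDKN1A, which encodes p21, was 163.9 ± 27.3 (SD, n = 2) in KATO-III CD133+ against 1447 ± 18.7 in CD133- cells, a log2 difference of -3.15 ± 0.09 (SE, limma adjusted p = 1.56e-07). In SNU-216 it was higher in CD133+ cells, at 1411 ± 55.7 against 987.6 ± 25.1 (0.51 ± 0.09, limma adjusted p = 0.00312). In SNU-601 it was 7592 ± 65.7 against 6556 ± 32.7 (0.21 ± 0.09, limma adjusted p = 0.171). The INK4 gene CDKN2B, encoding p15, went the same way in KATO-III, with 141.9 ± 11 against 464.4 ± 13.5 (-1.71 ± 0.12, limma adjusted p = 9.98e-06), and differed by -0.06 in SNU-216 and 0.24 in SNU-601, neither of which passed. CDKN1C, encoding p57, was lower in CD133+ cells of KATO-III (-0.52 ± 0.11, limma adjusted p = 0.00447), higher in those of SNU-601 (0.56 ± 0.11, limma adjusted p = 0.00842) and below the floor on all SNU-216 arrays. CDKN2C, encoding p18, was dim throughout, with means from 18.3 to 55.4, and passed in SNU-216 (0.76 ± 0.18, limma adjusted p = 0.0138) against a CD133- fraction under the floor. CDKN2D, encoding p19, was higher in CD133+ cells of SNU-601 (0.71 ± 0.10, limma adjusted p = 0.00221). Among the inhibitors of this list above the floor on all arrays, CDKN1A, CDKN2B and CDKN2D had a change that differed between lines (limma adjusted p = 1.55e-06, 6.86e-05 and 0.00237). CDKN1C is not counted here, since the floor sets its change to 0 in SNU-216, but its changes in KATO-III and SNU-601 had opposite signs.

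CCNE2, which encodes cyclin E2 and was also singled out after its values were seen, did not follow CCNE1. It was 906.5 ± 104.7 (SD, n = 2) against 677.1 ± 28.5 in KATO-III (0.42 ± 0.10 SE, limma adjusted p = 0.00797), where CCNE1 was lower in CD133+ cells. In SNU-216 it was 1953 ± 61.7 against 1218 ± 129.8 (0.68 ± 0.10, limma adjusted p = 0.000863), where CCNE1 did not pass. In SNU-601 it was 227.3 ± 11.6 against 220.6 ± 0.28, a difference of 0.04 (limma adjusted p = 0.903), where CCNE1 was higher.

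Downstream of RB1, 14 textbook E2F target genes of the G1 to S step were followed. In the CD133+ cells of KATO-III 10 rose and 1 fell, in SNU-216 3 and 1, and in SNU-601 7 and 0, with medians of 0.40, 0.17 and 0.22. Of all genes, 39.3%, 28.6% and 16.4% were called in these lines, which the count in SNU-216 did not exceed. Over all lines 3 were called, each higher. The licensing factor CDC6 rose by 0.49 ± 0.09 (SE, limma adjusted p = 0.02), thymidylate synthase TYMS by 0.47 ± 0.11 (limma adjusted p = 0.0353) and the DNA polymerase alpha subunit POLA1 by 0.32 ± 0.06 (limma adjusted p = 0.0245). TYMS was 9258 ± 149.4 (SD, n = 2) in KATO-III CD133+ against 5166 ± 34.3 in CD133- cells and 5741 ± 10.6 against 3925 ± 113.3 in SNU-601. In SNU-216 its arrays overlapped, at 10964.5 ± 391.8 against 10857 ± 306.2. The median of the 14 genes over all lines was 0.32, beside -0.01 for all genes. Of the 10 E2F and DP factors, 4 were higher and 2 lower in KATO-III, 3 and 3 in SNU-216 and 3 and 0 in SNU-601, beside the same shares of all genes. E2F7, a repressor among the E2F factors, was the 1 called over all lines (0.58 ± 0.12, limma adjusted p = 0.0308).

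The 10 markers of G2 and mitosis differed with the fraction in KATO-III, with 6 higher and 1 lower, and in SNU-601, with 8 and 0, beside 39.3% and 16.4% of all genes called in either direction. In SNU-216 1 was higher and 1 lower, under the 28.6% of all genes. BUB1 of the spindle checkpoint rose over all lines by 0.80 ± 0.16 (SE, limma adjusted p = 0.0256), cyclin B1 (CCNB1) by 0.74 ± 0.18 (limma adjusted p = 0.0387) and the topoisomerase TOP2A by 0.43 ± 0.05 (limma adjusted p = 0.00573). In SNU-216 CCNB1 hardly differed, at 944.3 ± 59.9 (SD, n = 2) against 928.2 ± 100.2. CDC20 and PLK1 were picked after their values were seen. CDC20 was lower in CD133+ cells of KATO-III (7785 ± 54.3 against 10421 ± 219) and higher in those of SNU-601. PLK1 was lower in CD133+ cells of SNU-216 (970.3 ± 27.1 against 1431 ± 3.51) and higher in those of the other lines. The part of the mitosis genes in the changes of the G1 genes was not tested. In SNU-601, where CCND3, CCNE1 and RB1 were higher in CD133+ cells, the median of the mitosis list was 0.47, in KATO-III, where CCND3 and CCNE1 were lower, it was 0.32, and in SNU-216 it was 0.02.

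**Figure D4:**
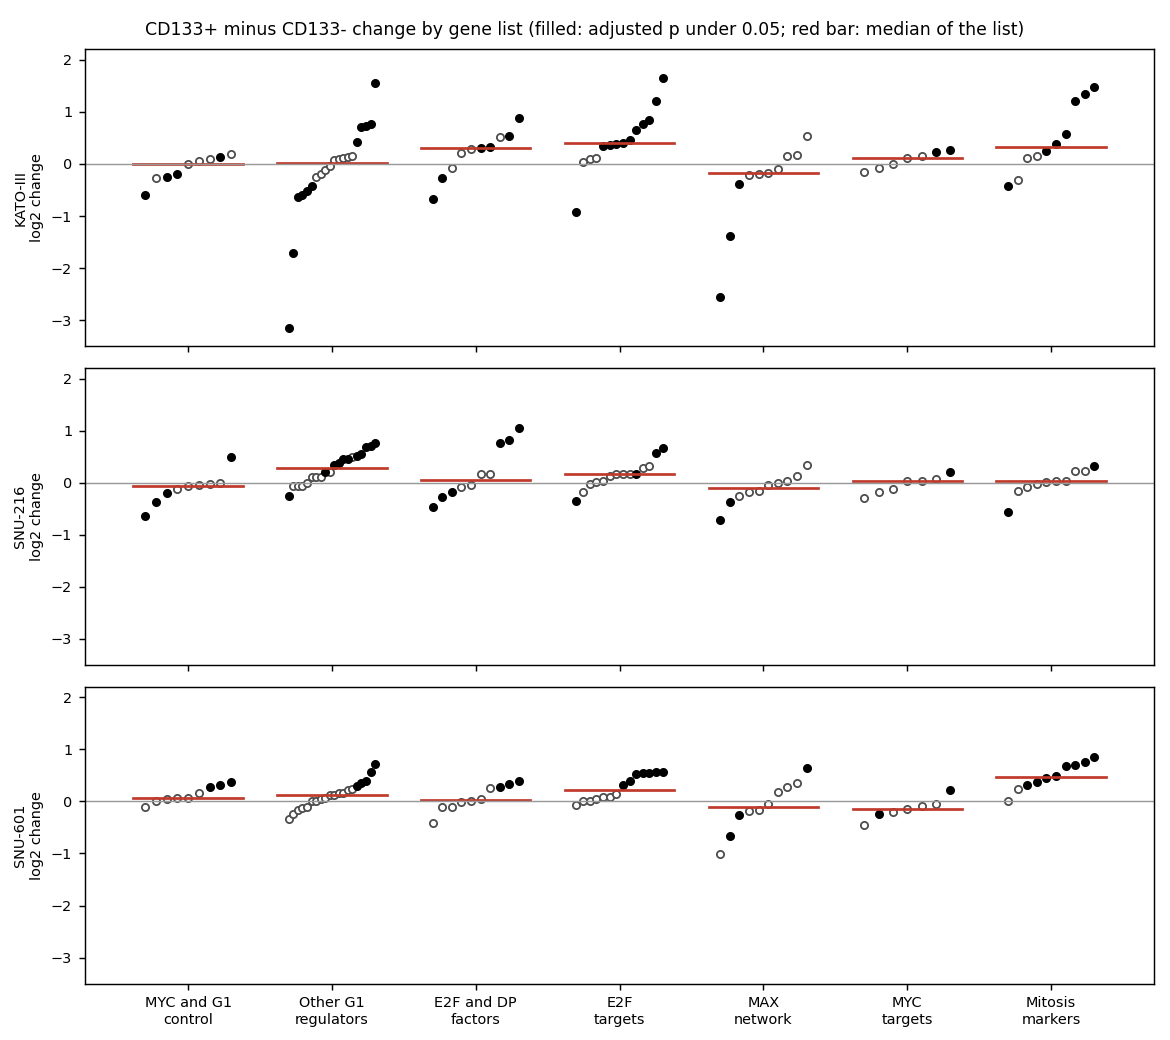
Log2 difference between CD133+ and CD133- cells (vertical axes) of every testable gene of 7 lists (horizontal axis) in each line. Each dot is a gene, filled where the adjusted p was under 0.05, and red bars are list medians. The lowest dots are CDKN1A at -3.15 and MXD4 at -2.56 in KATO-III, and the E2F target medians are 0.40, 0.17 and 0.22.

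Around MYC, the MAX network holds the factors that compete with MYC for MAX or bind the same sites, and 10 of its 11 listed genes were testable. In the CD133+ cells of KATO-III 0 rose and 3 fell, in SNU-216 0 and 2, and in SNU-601 1 and 2, with medians of -0.18, -0.11 and -0.11. In KATO-III and SNU-216 these counts lay under the 39.3% and 28.6% of all genes called, and in SNU-601 16.4% of all genes were. Over all lines 2 were called, and both were lower. The MYC antagonist MXD1 fell by 0.77 on the log2 scale (SE 0.17, limma adjusted p = 0.0341), being 183.8 ± 12.6 (SD, n = 2) against 480.5 ± 43.1 in KATO-III, 125.3 ± 16.2 against 152.9 ± 44.8 in SNU-216, where it did not pass, and 2391 ± 36.6 against 3793 ± 147.2 in SNU-601. The antagonist MNT fell by 0.34 (SE 0.05, limma adjusted p = 0.00943) and passed in each line. MXD4, singled out after its values were seen, was 473.8 ± 23.2 against 2785 ± 42.8 in KATO-III (-2.56 ± 0.12, limma adjusted p = 1.695e-06). It was 651.1 ± 71.3 against 737.4 ± 150.7 in SNU-216 and, with CD133+ cells higher, 1035 ± 15.7 against 854.7 ± 30.8 in SNU-601. MXD3 and MAX were picked in the same way. In SNU-601 MXD3 was higher in CD133+ cells, at 253.3 ± 7.79 against 162.9 ± 0.33. In SNU-216 MAX was lower in them, at 174.8 ± 0.48 against 287.9 ± 8.65. Of 10 textbook MYC targets, 7 were testable, while NPM1, TERT and EIF4E were under the floor in every population. In KATO-III 2 were higher and 0 lower, in SNU-216 1 and 0, and in SNU-601 1 and 1, and over all lines 0 were called. Their median over all lines was 0.00, beside -0.01 for all genes.

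For the 8 G1 genes above the floor on all 12 arrays, the genes of most similar pattern were sought among 11674 genes above the floor on all arrays, by Pearson's r of log2 intensity over the 12 arrays. These arrays are 6 populations of 3 lines measured in duplicate, so r mostly follows the differences between those 6 populations. It was 0.96 between MYC and each of MBD3, C19ORF24 and NUP98, and 0.87 between CCND1 and SCAMP3 and 0.86 between CCND1 and HS.539054. For CCND3 it was 0.99 with RHBDF2, 0.98 with GALT and 0.97 with BHLHB2. For CCNE1 it was 0.98 with CCNY, AP1B1 and CDKN2D. CDK4 was nearest to LOC100132503 (0.97), LOC654350 (0.94) and SETMAR (0.93), and CDK6 to LSM7 (0.92), LOC100132519 (0.89) and VARS (0.88). CDKN1B was nearest to CADM4 (0.96), SCPEP1 (0.92) and ZNF589 (0.91), and RB1 to MT1F, SPATA13 and SLC38A5 (0.98, 0.98 and 0.97). None of the nearest genes was another of the 10, and CDKN2D was the only one of them on the list of further G1 regulators.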

How the data were processed

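Expression was measured on Illumina HT-12 v3 arrays in 6 sorted populations with 2 arrays each. The authors deposited background-subtracted, quantile-normalized linear intensities, 1 row per gene symbol (34688 rows, 93 of them empty), and the labels name BeadStudio. Which probes lie behind a row is not given in the sources used here. Of all values, 32.1% were at or below 0. Values under 32.7, the 1st percentile of all values without its minus sign, were raised to 32.7 as a floor before log2 was taken. Testing covered the 20147 genes that cleared this floor on 2 or more arrays and used limma 3.58.1 (R 4.3.3), with lmFit and eBayes with trend. Contrasts within and between lines and the interaction used a mean for each of the 6 populations (6 residual degrees of freedom). The comparison over all lines used the line as a block (8 residual degrees of freedom). It had no term for the population. With populations as a random block, arrays of one population correlated at 0.64, so p-values over all lines may be too small. Results of the random-block and averaged fits are not reported here for genes outside the set. P-values were two-sided and adjusted by Benjamini-Hochberg over all genes tested. The scripts were tested on simulated data first. The number of arrays limits the precision.

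The members and the gene lists were chosen with earlier results of these data known. Named genes are the 10 members, PROM1, up to 3 genes of each list with the largest change among those called over all lines, and the 3 genes nearest to each member in pattern, of which 1 is not reported here, and others are marked as singled out later. Alternatives were other floors, an offset, other filters, centring, repeated quantile normalization, no trend, averaged or random-block populations, a replicate block, each line's arrays alone and each array left out.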

Additional observations from a re-analysis of the deposited data

Results flagged for a closer look

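For 5 of the 8 genes above the floor on all 12 arrays the difference between CD133+ and CD133- cells was unequal among the 3 lines. The moderated F-test of limma called 44.4% of all genes tested, which include genes under the floor on some arrays. The adjusted p of this test was 0.000142 for CCND3, whose log2 difference was -0.59 in KATO-III, -0.04 in SNU-216 and 0.31 in SNU-601. It was 0.00169 for CCNE1 (-0.26, -0.07 and 0.38), 0.00296 for CDK6 (0.09, -0.37 and 0.07), 0.00588 for MYC (0.14, -0.19 and -0.11) and 0.0108 for CDKN1B (-0.26, 0.50 and 0.06), lines in the same order. The same test gave 0.0116 for CDKN2A, which does not count as a difference between lines, since the floor sets its change to 0 in KATO-III and SNU-601. With a floor of 16 the value was 0.0819.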

How the results depend on the processing

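The counts of genes called were 4 in KATO-III, 4 in SNU-216, 3 in SNU-601 and 0 over all lines. They fell to 2 in KATO-III with no mean-variance trend, and to 2, 2 and 0 on the arrays of KATO-III, SNU-216 and SNU-601 alone. With each array left out in turn they ran from 1 to 4, 2 to 5, 2 to 3 and 0 to 0. In KATO-III 2 were called without CD133+ array 1, 1 without CD133+ array 2 and 2 without either CD133- array, and in SNU-216 2 without CD133- array 2. The counts that follow include CDKN2A, whose values outside SNU-216 are set by the floor. Those for the interaction ran from 6 to 7, for SNU-216 against KATO-III from 6 to 7, for SNU-601 against KATO-III from 5 to 5, for SNU-601 against SNU-216 from 3 to 4, and past the ratio of 1 or -1 from 0 to 0. Calls of single genes that depended on an array are given with the gene. CCND3 in KATO-III, CDK6 and CDKN2A in SNU-216 and CCND3 and CCNE1 in SNU-601 were called in all 12 fits with an array left out. With the replicate block the counts stayed at 4, 4, 3 and 0, and at 6 for the interaction, with every member call kept. The deviations of same-numbered arrays of a line correlated at 0.03, 0.01 and -0.01, so no shared deviation was seen. This cannot tell whether same-numbered arrays came from the same sort or culture. Changes of sign arose only in differences near 0 with an array left out. Those between fractions ran from -0.048 to 0.17 for RB1 in KATO-III, from -0.10 to 0.029 for CCND3, -0.056 to 0.017 for CDK4 and -0.093 to 0.071 for RB1 in SNU-216, from -0.017 to 0.16 for CDK6 and -0.034 to 0.16 for CDKN1B in SNU-601, and from -0.044 to 0.064 for CCNE1 over all lines. Between lines they ran from -0.013 to 0.01998 for CDK6 (SNU-216 minus KATO-III), from -0.068 to 0.019 for CDK6 (SNU-601 minus KATO-III) and, for SNU-601 minus SNU-216, from -0.085 to 0.028 for CCND1, -0.12 to 0.0085 for CDK4, -0.072 to 0.015 for CDK6 and -0.048 to 0.033 for RB1. The cause of these differences was not tested, beyond the fewer arrays of the fits. CCND2, and CDKN2A outside SNU-216, lay under the floor, where signal over background gives no order.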

Other observations

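E2F3 and CDT1 went in different directions in different lines. They and PCNA were picked after their values were seen. E2F3, an activating E2F factor, was higher in CD133+ cells of KATO-III (log2 difference 0.53 ± 0.04 SE, limma adjusted p = 1.28e-05) and of SNU-601 (0.27 ± 0.04, limma adjusted p = 0.00208) and lower in those of SNU-216 (-0.46 ± 0.04, limma adjusted p = 5.57e-05). The licensing factor CDT1 was lower in CD133+ cells of KATO-III (-0.92 ± 0.05, limma adjusted p = 1.695e-06) and SNU-216 (-0.34 ± 0.05, limma adjusted p = 0.00061) and higher in those of SNU-601 (0.54 ± 0.05, limma adjusted p = 0.000257), while CDC6, its partner in licensing, was higher in all 3. The difference between lines had a limma adjusted p of 1.03e-05 for E2F3, 4.58e-06 for CDT1 and 0.708 for CDC6. PCNA, the sliding clamp of DNA replication, was 2161 ± 432.1 (SD, n = 2) in KATO-III CD133+ against 689.7 ± 134.5 in CD133- cells (1.65 ± 0.21 SE, limma adjusted p = 0.000265), 2333 ± 416.8 against 1461 ± 164 in SNU-216 (0.67 ± 0.21, limma adjusted p = 0.0397), and 481.2 ± 80.6 against 478.4 ± 66.5 in SNU-601.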
